A study of Mus musculus with 16 samples.

Results

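The genes that make cholesterol and fatty acids were followed in mouse ear skin, as a set of 37 listed genes out of 30943 genes tested. A gene entered the set when the deposited annotation gave a transcript cluster one of the listed symbols. All 37 were found, each on a single cluster. The set holds 19 enzymes of sterol synthesis, of which 7 carry out the mevalonate steps and 12 the steps from squalene onward. It also holds 4 regulators or transport proteins and 14 enzymes of fatty acid and neutral lipid synthesis. The cluster of Awat2, a wax ester synthase, did not exceed the array median on 4 or more arrays. The other 36 did, and Scd3 and Fads2 lay close to that median.

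Expression was measured on 16 arrays, 4 in each of 4 groups of ears. Mice of strain C57BL/6J, either wild type or miR-146a -/- and all 8 to 11 weeks old, were treated on the right ear. The IMQ groups received 31.25 mg of Aldara cream a day for 3 days. Its active agent, 5% imiquimod (IMQ), stimulates Toll-like receptor 7 and causes psoriasis-like inflammation. The other groups are labelled as vehicle control. Whole ear flaps were taken on day 4, so each sample mixes epidermis, dermis, glands, fat, cartilage and muscle. Neither the make-up of the vehicle nor the way the miR-146a allele was made is stated in the labels. Nor do they tie arrays to single animals, and a p-value here weighs a difference only against the spread among arrays, which may be technical.

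MicroRNA-146a restrains signalling below Toll-like receptors. Its mature 5p strand is shown because its loss defines the knockout groups. It lies at chr11:43374435-43374456 on the minus strand of GRCm38.p6, per RefSeq. The capitals mark the seed, bases 2 to 8, which pairs with target messages.
mmu-miR-146a-5p: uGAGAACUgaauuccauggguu
The cluster of the miR-146a gene, Mir146, read 1.83, 1.62, 2.16 and 1.85 (log2) in wild-type vehicle ears and 1.78, 1.81, 1.79 and 1.83 in knockout vehicle ears. With IMQ it read 2.07, 2.03, 2.0 and 1.78 in wild type and 1.89, 1.93, 1.73 and 1.83 in the knockout. These values lie near the floor of the array, where 0.569% of genes have a lower mean, so the cluster does not check the genotype. Skin keratins were abundant: Krt14, a basal keratin, averaged 11.2 to 11.7 (log2) in the 4 groups.

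Cells make cholesterol from acetyl-CoA through mevalonate, squalene and lanosterol. SREBP-2, encoded by Srebf2, switches on most enzymes of this route when membrane sterol is low, while INSIG proteins hold it back in the endoplasmic reticulum. SREBP-1, encoded by Srebf1, leans toward the fatty acid enzymes and is itself raised by liver X receptors, which sense oxysterols. In skin, both routes feed the lipid layers of the epidermal barrier and the sebum of the sebaceous glands. Scd1 is a well-known sebaceous gland enzyme.

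IMQ moved the sterol enzymes and part of the fatty acid enzymes in opposite directions in knockout ears. Of the 37 members, 19 rose and 5 fell, against 8.07% of all genes that rose and 6.91% that fell. A member was called when its limma p, adjusted over all genes by the Benjamini-Hochberg method, was under 0.05. The rise took in 16 of the 19 sterol enzymes, with none lower, while 1 of the 14 fatty acid and neutral lipid enzymes rose and 4 fell. The median log2 difference (IMQ minus vehicle) was 0.67 over the sterol enzymes and 0.05 over the fatty acid and neutral lipid enzymes, and it was -0.02 over all genes. In 18 members the 4 IMQ arrays all lay above the 4 vehicle arrays and in 5 all below, against 8.55% and 7.43% of all genes. Shares of all genes, here and below, take in many dim genes, while nearly all members were brighter. A filter that dropped dim genes left 16400, of which 2803 rose and 2390 fell in the knockout. The same 24 members were called with it. Against those brighter genes, risers were still more frequent among the members, but fallers were not.

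**Figure D1:**
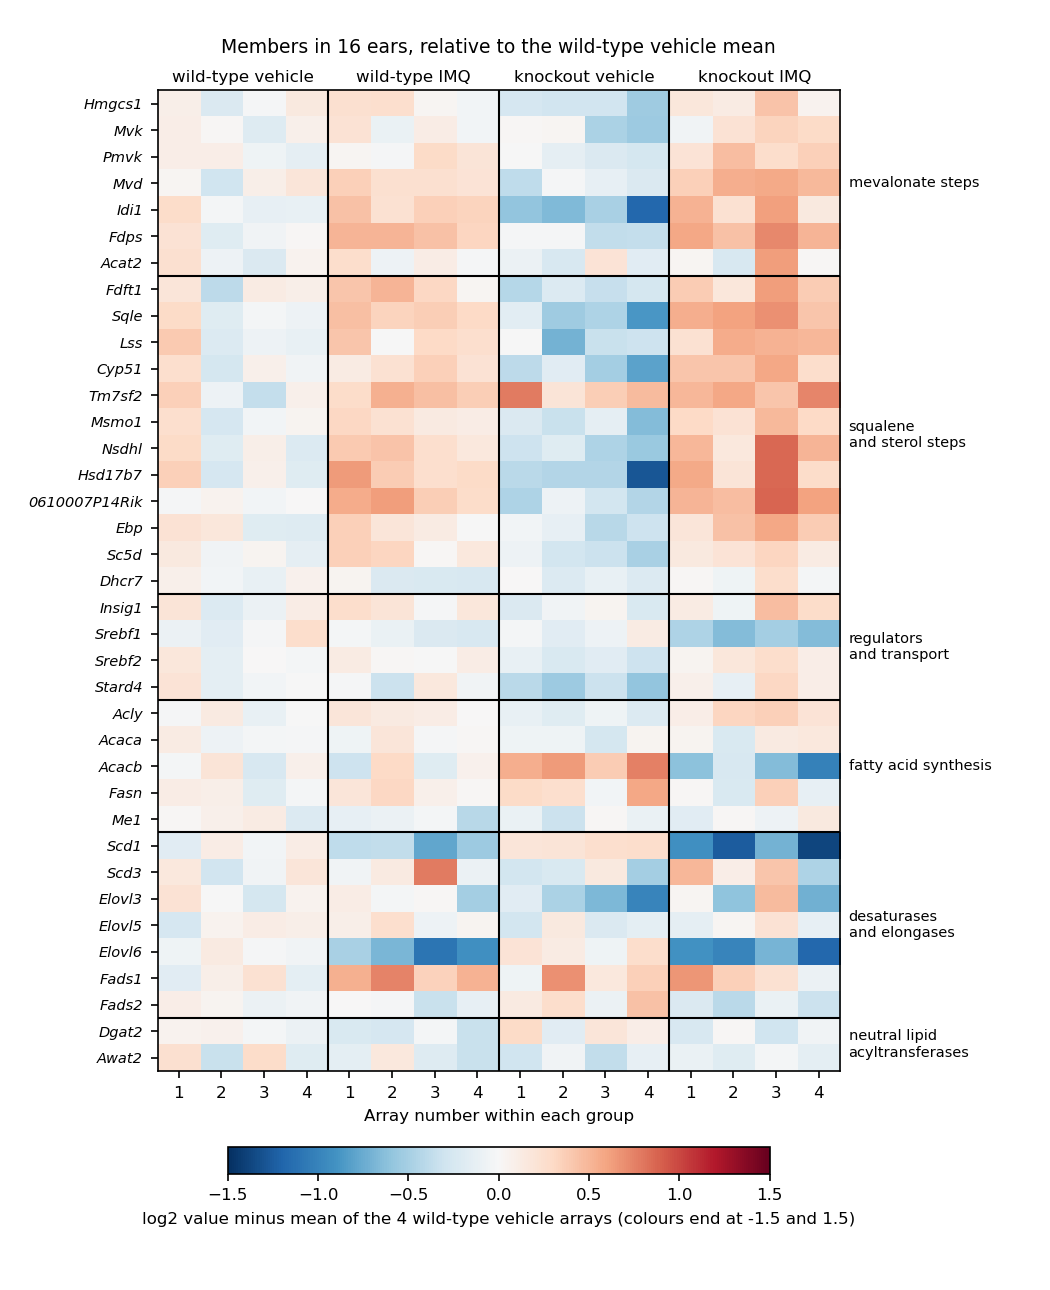
Each row is a member and each column an array. Colour gives the log2 value minus the mean of the 4 wild-type vehicle arrays, with black lines between the 4 groups and between roles. Sterol rows are mostly blue in knockout vehicle ears and red in knockout IMQ ears, while the Scd1 and Elovl6 rows are blue with IMQ in both genotypes.

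Muscle RNA moved with this contrast. The mean of 15 skeletal muscle markers ran from 8.30 to 9.27 (log2) in knockout vehicle and from 6.99 to 7.85 in knockout IMQ ears, and all 15 markers fell. In wild-type ears it ran from 7.55 to 8.46 with vehicle and from 7.49 to 8.31 with IMQ, and 0 of the 15 were called by limma, with 1 below 0.05 before adjustment. Keratinocyte markers moved too in the knockout. The mean of 4 stress keratins ran from 6.28 to 9.63 with vehicle and from 10.59 to 10.84 with IMQ, all 4 rose, and so did 8 of 10 cell cycle genes. Of 14 adipocyte markers 5 (Car3, Lpl, Plin1, Pparg and Pnpla2) fell and 0 rose in the knockout, while 2 (Cidec and Fabp4) rose and 0 fell in wild type. Macrophage and neutrophil markers moved in both genotypes: of 12, 9 rose in wild type and 8 in the knockout. Their mean went from 5.65 to 7.02 in wild type and from 5.48 to 7.02 in the knockout. Over all genes 1.95% rose and 1.69% fell in wild type, and 8.07% rose and 6.91% fell in the knockout. In whole ears, fewer cells of a type and less RNA per cell cannot be told apart.

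When the muscle marker mean was added to the fit as a covariate, 0 members were called higher and 2, Scd1 and Elovl6, were called lower in knockout ears. Calls over all genes fell as well, from 2496 higher and 2138 lower to 200 and 213. The median over the sterol enzymes was then 0.52, with 17 of 19 above 0, and the median standard error of those differences grew from 0.14 to 0.26. With the adipocyte mean added as well the median was 0.48 and the calls were again 0 higher and 2 lower. Knockout vehicle arrays 3 and 4 held the highest and the lowest stress keratin means of their group. Without both arrays 12 members rose and 5 fell, the sterol median was 0.60, and calls over all genes were 1650 higher and 1529 lower.

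**Figure D2:**
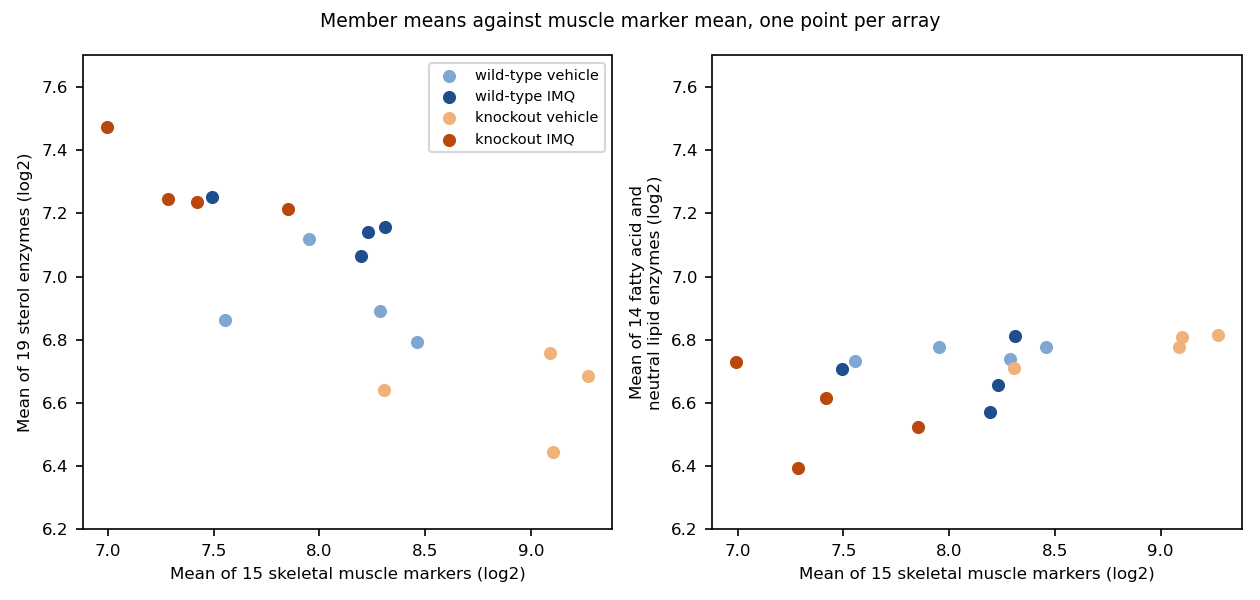
Each point is an array. The horizontal axis is the mean of 15 skeletal muscle markers (log2) and the vertical axis the mean of the 19 sterol enzymes (left) or of the 14 fatty acid and neutral lipid enzymes (right), also in log2. Knockout vehicle arrays have the lowest sterol means (6.44 to 6.76) and knockout IMQ arrays have muscle means of 6.99 to 7.85, below those of every knockout vehicle array.

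Of the mevalonate genes 6 of 7 rose with IMQ in knockout ears. Hmgcs1, the HMG-CoA synthase that commits acetyl units to the route, read 8.96, 8.93, 8.93 and 8.68 (log2) in knockout vehicle and 9.38, 9.33, 9.64 and 9.26 in knockout IMQ ears. Wild-type arrays of the gene read 9.30, 9.0, 9.19 and 9.36 with vehicle and 9.45, 9.46, 9.24 and 9.17 with IMQ. The knockout groups were thus separate, and the wild-type groups overlapped. Hmgcs1 rose by 0.53 ± 0.12 (log2 difference ± SE, adjusted p = 0.0045) in the knockout, and the wild-type difference was 0.12 ± 0.12 (adjusted p = 0.749).

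Idi1, the isomerase that interconverts the isoprene units, showed the widest range among the mevalonate genes. It read 5.88, 5.81, 5.99 and 5.30 in knockout vehicle and 7.0, 6.70, 7.09 and 6.62 in knockout IMQ ears. Wild-type ears gave 6.75, 6.44, 6.35 and 6.36 with vehicle and 6.91, 6.70, 6.83 and 6.81 with IMQ. Knockout vehicle ears lay below every other array of the study for Idi1. It rose by 1.11 ± 0.15 in the knockout (2.15-fold, adjusted p = 4.2e-05), and the wild-type difference was 0.34 ± 0.15 (adjusted p = 0.294).

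Fdps, the farnesyl diphosphate synthase, rose in both genotypes. It read 7.87, 7.47, 7.60 and 7.67 in wild-type vehicle and 8.16, 8.16, 8.09 and 7.97 in wild-type IMQ ears. The knockout arrays read 7.64, 7.64, 7.28 and 7.29 with vehicle and 8.23, 8.09, 8.37 and 8.16 with IMQ. Vehicle and IMQ arrays did not overlap in either genotype. The rise was 0.44 ± 0.12 in wild type (adjusted p = 0.047) and 0.75 ± 0.12 in the knockout (adjusted p = 0.00022). Mvd, which decarboxylates mevalonate diphosphate, rose in the knockout by 0.67, and the kinases Pmvk and Mvk by 0.48 and 0.44. Mvk had an adjusted p of 0.047 and overlapping arrays, and its call was lost without knockout vehicle array 3 or 4 or without knockout IMQ array 2, 3 or 4. Acat2, an acetoacetyl-CoA thiolase, differed by 0.18 ± 0.16 and was not called.

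Among the 12 genes from squalene onward, 10 rose in knockout IMQ ears. Sqle, the squalene epoxidase, is a rate-limiting enzyme of the later route. It read 7.80, 7.43, 7.50 and 7.09 in knockout vehicle and 8.50, 8.56, 8.65 and 8.38 in knockout IMQ ears. In wild type it read 8.25, 7.78, 7.93 and 7.88 with vehicle and 8.41, 8.29, 8.33 and 8.26 with IMQ. The IMQ arrays lay above the vehicle arrays in both genotypes, with 8.25 and 8.26 as the nearest wild-type values. Sqle rose by 1.07 ± 0.14 in the knockout (2.10-fold, adjusted p = 2.5e-05). The wild-type difference of 0.36 ± 0.14 was not called (adjusted p = 0.191).

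Cyp51, the lanosterol demethylase, read 7.12, 7.35, 7.01 and 6.72 in knockout vehicle and 7.93, 7.93, 8.10 and 7.78 in knockout IMQ ears. Wild-type arrays of the gene read 7.77, 7.25, 7.59 and 7.46 with vehicle and 7.64, 7.75, 7.88 and 7.74 with IMQ. Only the knockout groups were separate. Cyp51 rose there by 0.89 ± 0.14 (adjusted p = 0.00016), against 0.24 ± 0.14 in wild type (adjusted p = 0.480).

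The enzymes that strip methyl groups from the sterol ring gave some of the larger differences. Nsdhl, the sterol dehydrogenase of this complex, read 7.01, 7.13, 6.85 and 6.76 in knockout vehicle and 7.81, 7.48, 8.18 and 7.83 in knockout IMQ ears. Its wild-type arrays read 7.61, 7.14, 7.41 and 7.11 with vehicle and 7.71, 7.75, 7.57 and 7.47 with IMQ and overlapped. Nsdhl rose by 0.89 ± 0.15 in the knockout (adjusted p = 0.00033). The gene listed as 0610007P14Rik, now Erg28, encodes a scaffold of the same complex and was called in both genotypes. It read 6.91, 6.99, 6.89 and 6.94 in wild-type vehicle and 7.49, 7.56, 7.30 and 7.21 in wild-type IMQ ears, a rise of 0.46 ± 0.12 (adjusted p = 0.041). In the knockout it read 6.47, 6.86, 6.66 and 6.49 with vehicle and 7.44, 7.39, 7.80 and 7.54 with IMQ, a rise of 0.92 ± 0.12 (adjusted p = 3.1e-05). Hsd17b7, the keto reductase of the complex, rose by 1.11 ± 0.20 in the knockout, and Msmo1, its oxidase, by 0.66.

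The remaining steps followed the same direction in the knockout. Lss, the lanosterol synthase, rose by 0.79 and Fdft1, the squalene synthase, by 0.70. Ebp, a sterol isomerase, rose by 0.62 and Sc5d, a sterol desaturase, by 0.49. Tm7sf2, a sterol reductase, and Dhcr7, the final reductase to cholesterol, were not called, with differences of 0.10 ± 0.15 and 0.17 ± 0.11.

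**Figure D3:**
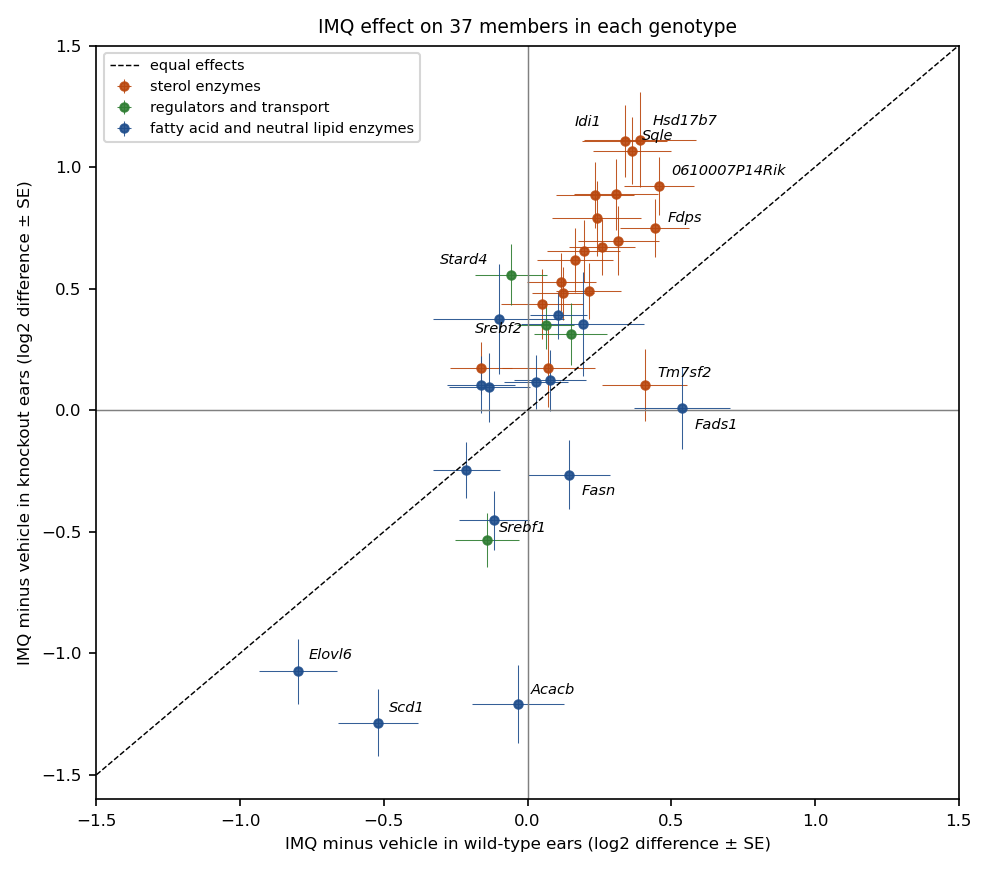
Each point is a member, with the log2 difference IMQ minus vehicle in wild-type ears on the horizontal axis and in knockout ears on the vertical axis. Bars are standard errors and the dashed line marks equal effects. Of the 19 sterol enzymes 18 lie above the line, and Acacb lies near 0 in wild type and at -1.21 in the knockout.

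Promoters of these genes are shown because the sterol enzymes moved together. A RefSeq promoter entry (GRCm38.p6) was found for 29 members, and the 250 bases before each start were searched on both strands for CCAAT, the NF-Y box, for TCACNCCAC, a form of the sterol response element, and for CACGTG, an E-box. CCAAT occurred in 14 of 16 sterol enzymes (87.5%), in 3 of 3 regulators and in 5 of 10 fatty acid and neutral lipid enzymes (50.0%), against 37.5% of 27025 genes. TCACNCCAC occurred in 1 of the 16, Hmgcs1, against 1.22% of all genes. CACGTG occurred in 3 of the 16 against 6.86% of all genes. A match is a description of letters and does not show binding. The first 3 sequences are sterol enzymes named above and the last is Acacb, which moved the other way. Capitals mark the motifs, and ATTGG is CCAAT read on the other strand. They lie at chr13:119690101-119690350 (plus strand, Hmgcs1), chr13:8885356-8885605 (plus strand, Idi1), chr1:169969206-169969455 (minus strand, Hsd17b7) and chr5:114165268-114165517 (plus strand, Acacb).
Hmgcs1: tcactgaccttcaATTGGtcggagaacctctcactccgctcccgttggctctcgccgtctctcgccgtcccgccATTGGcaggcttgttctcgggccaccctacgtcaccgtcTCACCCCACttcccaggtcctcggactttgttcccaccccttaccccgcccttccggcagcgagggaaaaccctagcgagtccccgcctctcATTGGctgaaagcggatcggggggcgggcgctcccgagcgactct
Idi1: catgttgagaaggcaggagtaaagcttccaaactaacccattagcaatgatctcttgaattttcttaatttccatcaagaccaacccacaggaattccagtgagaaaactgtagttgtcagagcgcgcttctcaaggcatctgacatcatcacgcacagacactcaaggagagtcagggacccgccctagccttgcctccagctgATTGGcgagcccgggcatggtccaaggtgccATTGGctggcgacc
Hsd17b7: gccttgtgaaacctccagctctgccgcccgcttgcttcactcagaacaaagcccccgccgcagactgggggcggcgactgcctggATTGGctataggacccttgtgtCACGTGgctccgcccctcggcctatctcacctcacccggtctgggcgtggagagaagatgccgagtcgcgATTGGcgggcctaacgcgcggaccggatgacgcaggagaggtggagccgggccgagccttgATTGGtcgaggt
Acacb: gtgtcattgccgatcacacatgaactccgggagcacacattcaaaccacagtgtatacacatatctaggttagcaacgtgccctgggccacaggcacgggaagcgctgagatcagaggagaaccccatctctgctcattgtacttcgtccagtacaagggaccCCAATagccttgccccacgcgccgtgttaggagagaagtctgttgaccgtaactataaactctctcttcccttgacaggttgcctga
Hmgcs1 holds 3 CCAAT boxes and the sterol element at 137 to 129 bases before the start. Hsd17b7 holds 3 CCAAT boxes and an E-box, Idi1 holds 2 CCAAT boxes, and Acacb holds 1. Cyp51, a sterol enzyme that rose and whose sequence is not printed, also holds 1 CCAAT box and no other motif. The printed sequences therefore do not set risers apart from Acacb by the number of matches.

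The 4 regulators and transport proteins did not move as 1 group. Srebf2, the sterol regulator, read 8.01, 7.90, 7.95 and 7.82 in knockout vehicle and 8.17, 8.29, 8.39 and 8.23 in knockout IMQ ears. Wild-type ears gave 8.30, 7.98, 8.13 and 8.09 with vehicle and 8.25, 8.14, 8.12 and 8.24 with IMQ. The knockout groups were separate and the wild-type groups overlapped. Srebf2 rose by 0.35 ± 0.10 in the knockout (adjusted p = 0.021), and this call was lost without knockout vehicle array 4 or knockout IMQ array 3. It was also lost without knockout vehicle arrays 3 and 4 together, with quantile normalization, with only the compared groups and with either covariate fit. The wild-type difference was 0.06 ± 0.10.

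Srebf1 went the other way. It read 6.10, 5.96, 6.05 and 6.25 in knockout vehicle and 5.66, 5.47, 5.61 and 5.48 in knockout IMQ ears. In wild type it read 6.04, 5.96, 6.11 and 6.39 with vehicle and 6.10, 6.03, 5.91 and 5.89 with IMQ. Knockout IMQ ears lay below all 12 other arrays for Srebf1. It fell by 0.54 ± 0.11 on the log2 scale (adjusted p = 0.0023) in the knockout, while the wild-type difference was -0.14 ± 0.11 (adjusted p = 0.648).

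Insig1, which retains the SREBPs, read 6.93, 7.09, 7.18 and 6.91 in knockout vehicle and 7.26, 7.08, 7.61 and 7.42 in knockout IMQ ears. Wild-type arrays of the gene read 7.33, 6.94, 7.05 and 7.25 with vehicle and 7.41, 7.33, 7.12 and 7.31 with IMQ. The groups overlapped in both genotypes. The knockout difference of 0.32 ± 0.13 was not called (adjusted p = 0.118) but was without knockout IMQ array 2, and the wild-type difference was 0.15 ± 0.13. Stard4, a soluble sterol carrier, rose by 0.56 ± 0.13 in the knockout (adjusted p = 0.0042).

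**Figure D4:**
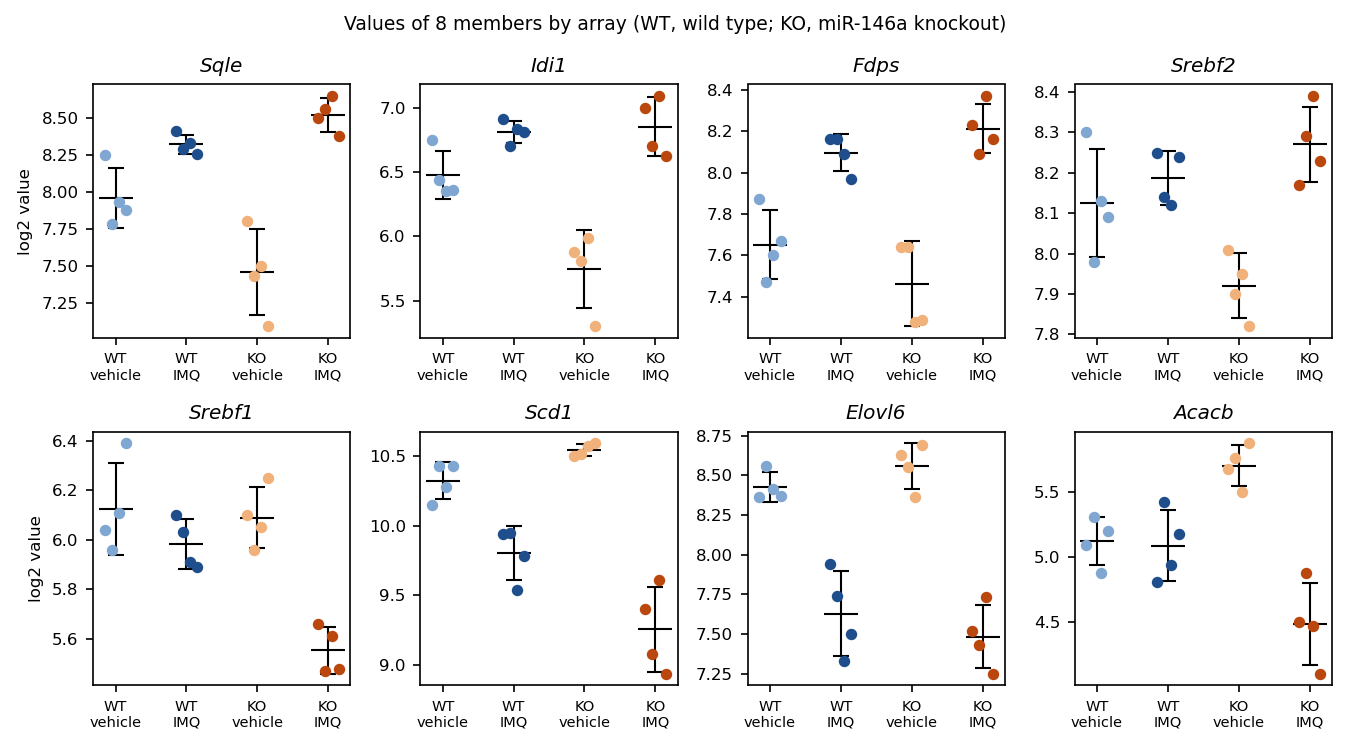
Points are arrays and black bars give the group mean ± SD (n = 4) of the log2 value for 8 members, in the 4 groups on the horizontal axis. Vertical scales differ between panels and do not start at 0. Sqle, Idi1 and Fdps are lowest on average in knockout vehicle ears, while Scd1 and Elovl6 are lower with IMQ in both genotypes.

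Fatty acid synthesis was split. Acly, which makes cytosolic acetyl-CoA from citrate, rose in knockout IMQ ears by 0.39 ± 0.10 (adjusted p = 0.0093). Fasn, the fatty acid synthase, read 8.65, 8.62, 8.33 and 8.95 in knockout vehicle and 8.39, 8.14, 8.72 and 8.24 in knockout IMQ ears. Wild-type arrays read 8.48, 8.46, 8.19 and 8.34 with vehicle and 8.55, 8.68, 8.44 and 8.38 with IMQ. Fasn overlapped between treatments in both genotypes, with differences of -0.27 ± 0.14 in the knockout (adjusted p = 0.271) and 0.15 ± 0.14 in wild type (adjusted p = 0.738). Acaca, the cytosolic acetyl-CoA carboxylase, and Me1, the malic enzyme, were not called in either genotype, with differences between -0.16 and 0.12.

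Acacb, the acetyl-CoA carboxylase of the outer mitochondrial membrane, is known for control of fatty acid oxidation in muscle and fat. It read 5.67, 5.76, 5.50 and 5.87 in knockout vehicle and 4.50, 4.88, 4.47 and 4.11 in knockout IMQ ears. Wild-type ears gave 5.09, 5.31, 4.88 and 5.20 with vehicle and 4.81, 5.42, 4.94 and 5.18 with IMQ. Knockout vehicle arrays lay above all others for Acacb. It fell by 1.21 ± 0.16 on the log2 scale (adjusted p = 3.5e-05) in the knockout, and the wild-type difference was -0.03 ± 0.16 (adjusted p = 0.962). With the muscle mean as a covariate the knockout difference was -0.50 ± 0.24 (adjusted p = 0.378). Around the group means of 16 arrays, Acacb had r = 0.75 with the muscle marker mean and r = 0.75 with the adipocyte marker mean, values that share the same arrays.

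Among the desaturases and elongases, Scd1 and Elovl6 fell in both genotypes. Scd1, the stearoyl-CoA desaturase that makes monounsaturated fatty acids, read 10.15, 10.43, 10.28 and 10.43 in wild-type vehicle and 9.94, 9.95, 9.54 and 9.78 in wild-type IMQ ears. In the knockout it read 10.50, 10.51, 10.57 and 10.59 with vehicle and 9.40, 9.08, 9.61 and 8.94 with IMQ. Treatments did not overlap in either genotype. Scd1 fell by 0.52 ± 0.14 on the log2 scale in wild type (adjusted p = 0.042) and fell by 1.29 ± 0.14 in the knockout (adjusted p = 4.3e-06).

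Elovl6, which elongates saturated acyl chains, read 8.36, 8.56, 8.41 and 8.37 in wild-type vehicle and 7.94, 7.74, 7.33 and 7.50 in wild-type IMQ ears. In the knockout it read 8.63, 8.55, 8.36 and 8.69 with vehicle and 7.52, 7.43, 7.73 and 7.25 with IMQ. The separation between treatments was again complete. Elovl6 fell by 0.80 ± 0.14 in wild type (adjusted p = 0.0016) and fell by 1.08 ± 0.14 in the knockout (adjusted p = 2.2e-05). With the muscle mean as a covariate the knockout differences were -1.45 ± 0.26 for Scd1 (adjusted p = 0.011) and -1.16 ± 0.26 for Elovl6 (adjusted p = 0.036).

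Fads2, a polyunsaturated fatty acid desaturase, fell by 0.45 ± 0.12 in the knockout (adjusted p = 0.014), at levels of 3.54 to 4.38 that lie near the array median. Its call was lost without knockout vehicle array 4. Fads1, the partner desaturase, read 4.65 to 5.05 in wild-type vehicle and 5.17 to 5.57 in wild-type IMQ ears, without overlap, and its difference of 0.54 ± 0.17 was not called (adjusted p = 0.096). Scd3, Elovl3 and Elovl5 were not called in any contrast, and neither were Dgat2, which makes triglycerides, and Awat2.

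**Figure D5:**
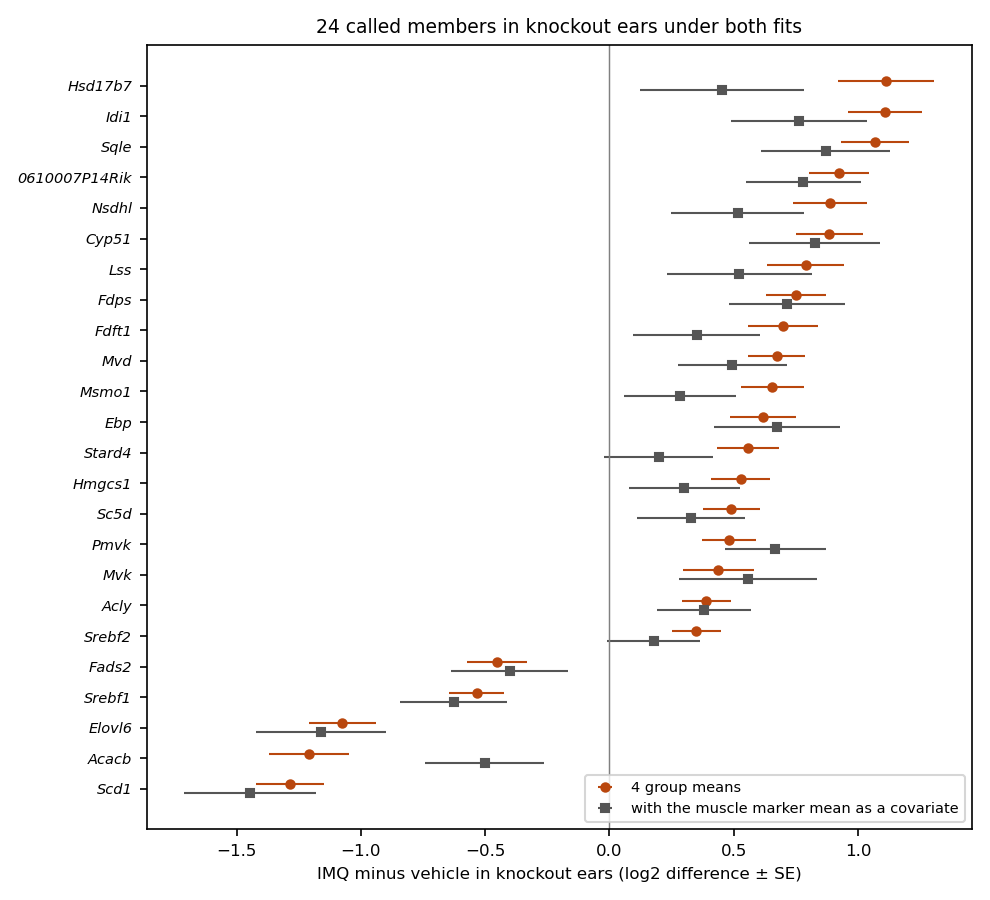
The 24 members called for IMQ in knockout ears are shown with their log2 difference ± SE from the fit of 4 group means (circles) and from the fit that adds the muscle marker mean (squares). With the covariate 0 members are called higher and 2, Scd1 and Elovl6, lower.

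In wild-type ears few members were called with IMQ. There, 2 rose and 2 fell, against 1.95% and 1.69% of all genes. With the filter on dim genes, 812 rose and 642 fell of 16400 genes, and the same 4 members were called. Before adjustment 8 members were higher and 2 lower at p under 0.05, against 2212 and 2223 of 30943 genes. The risers were Fdps and 0610007P14Rik and the fallers Scd1 and Elovl6. The sterol enzymes had a median difference of 0.24 with 18 of 19 above 0, and the fatty acid and neutral lipid enzymes a median of -0.07. Arrays did not overlap in 5 members that were higher (Fdps, 0610007P14Rik, Sqle, Mvd and Fads1) and 2 that were lower (Scd1 and Elovl6), against 5.52% and 5.17% of all genes. Elovl6 was called after leaving out each wild-type array in turn. Fdps, 0610007P14Rik and Scd1 were all lost without wild-type vehicle array 2, 3 or 4 and without wild-type IMQ array 1, 2 or 3. Without wild-type vehicle array 1 the loss was 0610007P14Rik, and without wild-type IMQ array 4 it was Fdps and Scd1.

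The next comparison asked how the genotypes differed without IMQ. In vehicle ears 1 member, Idi1, was called lower in the knockout and none higher, against 0.349% and 0.107% of all genes. Quantile normalization shifted the split over all genes from 33 higher and 108 lower to 55 and 103, and the member counts stayed at 0 and 1. Idi1 was lower by a log2 difference of -0.73 ± 0.15 (adjusted p = 0.034), and its knockout and wild-type vehicle arrays did not overlap. Its call was lost without wild-type vehicle array 1, 2 or 3 or without knockout vehicle array 1, 2 or 4. Of the 19 sterol enzymes 18 had a lower mean in knockout vehicle ears, with a median of -0.31. The exception was Tm7sf2, at 0.46 ± 0.15 (adjusted p = 0.179). At an unadjusted p under 0.05, 11 of the 19 were lower and 1 higher, against 2023 and 1740 of 30943 genes. Hsd17b7 differed by -0.64 ± 0.20, Sqle by -0.51 ± 0.14 (adjusted p = 0.105) and Cyp51 by -0.47 ± 0.14, none of them called. Arrays were separate in 5 members that were lower (Idi1, Hsd17b7, 0610007P14Rik, Hmgcs1 and Stard4) and 2 that were higher (Scd1 and Acacb), against 3.57% and 2.42% of all genes.

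The fatty acid enzymes had no common direction in vehicle ears, with 7 of 14 above 0. Acacb was at 0.58 ± 0.16 (adjusted p = 0.114), with knockout arrays above all wild-type arrays, and Elovl3, a skin elongase of very long chains, was at -0.58 ± 0.23. The muscle marker mean was higher in the knockout, at 8.94 ± 0.43 against 8.06 ± 0.40 (SD, n = 4), with 15 of 15 markers above 0 and 1 of them called. The stress keratin mean was 8.12 ± 1.38 in the knockout against 10.0 ± 0.27. The adipocyte marker mean was 6.31 ± 0.41 against 5.73 ± 0.27, with 13 of 14 markers above 0 and 0 called by limma (10 at an unadjusted p under 0.05). Cell cycle genes were 10 of 10 below 0, with 1 called. These markers moved alongside the members, and with the muscle mean as a covariate 0 members were called in vehicle ears. Over all 30943 genes that fit called 1 higher and 1 lower, so the loss is not particular to the members.

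In IMQ ears 0 members were called by limma in either direction between genotypes, against 0.0194% higher and 0.100% lower of all genes. Before adjustment 0 members were higher and 3 lower at p under 0.05, against 1132 and 1419 of 30943 genes. Those 3 were Acacb, at -0.60 ± 0.16 (95% interval -0.93 to -0.26), Scd1, at -0.55 ± 0.14 (adjusted p = 0.175), and Srebf1, at -0.43 ± 0.11 (adjusted p = 0.196). Knockout IMQ arrays of Srebf1 all lay below the wild-type IMQ arrays, and the Scd1 arrays overlapped. Tissue markers differed here too: muscle markers were 15 of 15 below 0 in the knockout (median -0.65) and adipocyte markers 13 of 14 (median -0.53). None of them was called by limma, and 10 and 7 had an unadjusted p under 0.05. The sterol enzymes had a median of 0.15, and 18 of 19 were above 0. Mvd and Ebp, at 0.23 each, were the highest of them. For Sqle the difference of 0.20 had a 95% interval from -0.09 to 0.49, and for Hmgcs1 the difference of 0.07 had one from -0.18 to 0.32. Fads1 was at -0.24 ± 0.17. Arrays were separate in 1 member that was higher, Mvd, and 1 that was lower, Srebf1, against 2.26% and 2.77% of all genes.

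The last comparison tested whether IMQ acted differently in the genotypes, as the difference of the 2 effects. It called 1 member lower and none higher, against 0.721% and 0.530% of all genes. The member was Acacb, at -1.18 ± 0.23 (adjusted p = 0.017). It was called after leaving out each of the 16 arrays in turn, and its value with the muscle mean as a covariate was -0.47 ± 0.27 (adjusted p = 0.764). With that covariate 0 of 30943 genes were called higher and 0 lower in this contrast, so the lost call is not particular to Acacb. Of the sterol enzymes 18 of 19 had a larger IMQ effect in the knockout, with a median difference of effects of 0.41. Before adjustment 13 were higher and 0 lower at p under 0.05, against 2087 and 1980 of 30943 genes. None was called by limma after adjustment. On simulated data the fit recovered only 2.99% of 0.5 log2 changes in this contrast, so differences of this size would mostly be missed. Idi1 was at 0.77 ± 0.21 (adjusted p = 0.082), Hsd17b7 at 0.72 ± 0.28, Sqle at 0.71 ± 0.19 (adjusted p = 0.081) and Cyp51 at 0.65 ± 0.19. Scd1 was at -0.77 ± 0.20 (adjusted p = 0.063) and Srebf1 at -0.39 ± 0.16 (adjusted p = 0.274). With a filter on dim genes, or with trend and robust options, Idi1, Sqle and Scd1 were called as well.

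Group means of the sterol enzymes fell into an order. The lowest mean was in knockout vehicle ears for 17 of 19 genes, with Tm7sf2 lowest in wild-type vehicle and Dhcr7 in wild-type IMQ ears. The highest mean was in knockout IMQ ears for 18 of 19, with Sc5d the exception. The mean over the 19 genes ran from 6.44 to 6.76 in knockout vehicle, from 6.79 to 7.12 in wild-type vehicle, from 7.07 to 7.25 in wild-type IMQ and from 7.21 to 7.47 in knockout IMQ ears. The knockout vehicle range stood apart, and each of the other ranges overlapped the next. This order of groups was not particular to the sterol enzymes. In the same order, the stress keratin mean was 8.12, 10.02, 10.58 and 10.76 and the cell cycle mean 5.59, 6.11, 6.19 and 6.45. The muscle and adipocyte marker means did not follow it. The contrasts share arrays, so the effect of IMQ in knockout ears and the genotype difference in vehicle ears both rest on the knockout vehicle arrays. In that group array 4 was lowest for 10 of the 19 genes and array 1 highest for 10.

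Members also varied together within groups. Around the group means of the 16 arrays, the mean r over 171 pairs of sterol enzymes was 0.37. It was 0.12 over 91 pairs of fatty acid and neutral lipid enzymes and 0.09 between both sets. Pairs of genes spaced through the whole table gave 0.0007. Those pairs take in dim genes too, and pairs matched to the members in level were not examined. Without 1 array at a time the sterol value ran from 0.30 to 0.40. Msmo1 (r = 0.87), Hsd17b7 (0.85), Sqle (0.84) and Fdps (0.84) followed the mean of the other sterol enzymes most closely. Srebf2 followed it with r = 0.81 and Insig1 with 0.66, while Srebf1 stood at -0.02. Pmvk (0.06) and Tm7sf2 (0.17) were the sterol enzymes least like the rest. Elovl3 was the closest fatty acid gene, at 0.77.

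Tissue markers shared this variation. The sebaceous gland marker mean had a median r of 0.50 with the sterol enzymes, 17 of 19 above 0. Its median r with the 14 fatty acid and neutral lipid enzymes was 0.25, from -0.37 for Dgat2 to 0.89 for Elovl3, with Scd1 at 0.71 and Elovl6 at 0.63. Some sebaceous markers, Awat1, Acsbg1 and Soat1 among them, are lipid enzymes themselves. That marker mean is therefore not separate from lipid synthesis. The cell cycle mean had a median r of 0.33 with the sterol enzymes, 18 of 19 above 0. The muscle mean had a median r of -0.30 with the sterol enzymes, 15 of 19 below 0. These values rest on 16 arrays, which share tissue make-up and array quality, and are given as descriptions. Of 9 sebaceous markers 3 (Acsbg1, Krt79 and Soat1) fell with IMQ in wild type, against 1.69% of all genes. In the knockout 2 (Awat1 and Mgst1) rose and 3 (Acsbg1, Mc5r and Soat1) fell, against 8.07% and 6.91% of all genes. Awat1, a wax synthase of sebum, rose by 1.29 ± 0.24 and Acsbg1, an acyl-CoA synthetase, fell by 0.82 ± 0.12 in the knockout.

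Other genes of the same pathways were split in knockout IMQ ears. In a list of 15 further sterol pathway genes 4 rose and 2 fell, against 8.07% and 6.91% of all genes. With the filter on dim genes, 2803 rose and 2390 fell of 16400 genes. Lbr, the sterol reductase of the nuclear envelope, rose by 0.55 ± 0.16 (adjusted p = 0.021), and Mbtps2, a protease that releases active SREBP, rose by 0.42 ± 0.14 (adjusted p = 0.042). Npc1, which exports cholesterol from lysosomes, fell by 0.46 ± 0.12 (adjusted p = 0.011). Soat1, which esterifies cholesterol, fell by 0.59 ± 0.18 in the knockout (adjusted p = 0.031) and fell by 0.66 ± 0.18 in wild type (adjusted p = 0.047). Of 8 efflux and liver X receptor target genes 2 rose and 3 fell in the knockout, where 8.07% and 6.91% of all genes did. In wild type 0 of the 8 were called by limma. There 3 were higher and 1 lower at an unadjusted p under 0.05, against 2212 and 2223 of 30943 genes. The values that follow are for the knockout. Abcg1, a sterol exporter, rose by 0.44 and Lpcat3, which remodels phospholipids, by 0.51. Mylip, which marks lipoprotein receptors for degradation, fell by 0.80 ± 0.12.

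Among 21 other genes of fatty acid and triglyceride synthesis 9 rose and 6 fell in the knockout, against 8.07% and 6.91% of all genes. In wild type 2 rose and 1 fell, against 1.95% and 1.69% of all genes. Acsl3, an acyl-CoA synthetase, rose in both genotypes, by 0.89 ± 0.14 in the knockout and by 0.53 ± 0.14 in wild type. Dgat1, a triglyceride synthase, rose by 0.89 ± 0.14, Scd2, another stearoyl-CoA desaturase, by 0.80 ± 0.13 and Elovl4, an elongase of barrier lipids, by 0.72 ± 0.12 in the knockout. Gpam, which starts glycerolipid synthesis, fell by 0.81 ± 0.12, and Mlxipl, which encodes the carbohydrate response factor ChREBP, fell by 0.77 ± 0.17. Scd2 thus rose in the contrast in which Scd1 fell. Of 15 fatty acid oxidation genes 3 (Acadl, Cpt2 and Hadha) rose and 3 (Acadm, Cpt1b and Echs1) fell in the knockout, 20% each way. With the filter on dim genes, 2803 rose and 2390 fell of 16400 genes, so these shares lie near those of brighter genes. Cpt2, of the carnitine shuttle, was the 1 gene of this list that rose in wild type. Acadm, a medium-chain acyl-CoA dehydrogenase, fell by 0.78 ± 0.11 in the knockout.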

How the data were processed

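RNA of ear flaps was hybridised to 16 Affymetrix Mouse Gene ST 2.1 arrays. The deposited table holds log2 values of 41345 transcript clusters. The submitters' processing notes name Affymetrix Expression Console for this step, and neither the summarisation nor the build is stated. Values run from 1.25 to 13.29 with array medians of 3.21 to 3.28, and none were renormalized. Symbols come from the deposited annotation. For the 909 symbols with several clusters, the cluster of highest mean was used, which left 30943 genes.

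A linear model of 4 group means was fitted with limma 3.58.1 in R 4.3.3 (12 residual and 6.18 prior degrees of freedom), with 5 contrasts and Benjamini-Hochberg adjustment over all genes. Errors after ± are SE for differences and SD for means. It was tested on simulated data. Arrays have no depth, and their number limits precision.

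Members and lists were chosen with earlier results of these data known. Named members are those called, the 6 of largest difference in each contrast, Srebf1, Srebf2, Insig1, Hmgcs1, Sqle, Fasn and Scd1. Other lists give at most 4 genes a contrast by size and any called, and those not named are not reported here. Values per array are given for up to 14 members. Alternatives were other normalizations, filters, variance models and sample sets, the array number as a block, and marker means as covariates.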

Additional observations from a re-analysis of the deposited data

Results flagged for a closer look

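In 4 of 148 groups of 4 arrays, a member had 1 array far from the other 3 by Dixon's test, which chance gives in about 1 in 20 groups. Hmgcs1 read 8.68 and Hsd17b7 read 6.32 on knockout vehicle array 4, where the other arrays of that group read 8.93 to 8.96 and 7.16 to 7.19. Elovl5 read 6.39 on wild-type vehicle array 1, against 6.69 to 6.75 on the others. Dhcr7 read 6.54 on wild-type IMQ array 1, against 6.26 to 6.28. The IMQ effect on Acacb differed between the genotypes by -1.18 on the log2 scale in the test of the difference itself, with a fall in the knockout and a wild-type difference of -0.03.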

How the results depend on the processing

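Counts of called members depended on single arrays and on tissue covariates. In wild type the 2 higher members became 1 with quantile normalization, 6 with values raised to the array median, 1 with the muscle covariate and 0 with muscle and adipocyte covariates, and 0 to 1 without 1 array at a time. The 2 lower members became 1 with median centring, 3 with values raised to the array median and 1 to 2 without 1 array. In the knockout the 19 higher members became 12 without knockout vehicle arrays 3 and 4 and 0 with either covariate fit, and the 5 lower became 2 with either. In vehicle ears the 1 lower member became 2 with trend and robust options, 0 with only the compared groups, 0 without knockout vehicle arrays 3 and 4, 0 with either covariate fit and 0 to 1 without 1 array. In IMQ ears 0 lower members became 0 to 1 without 1 array. For the difference of effects, 0 higher members became 2 with the filter on dim genes, 2 with trend and robust options, 1 with array weights and 0 to 1 without 1 array. The 1 lower member became 2 with the filter, 2 with trend and robust options, 1 to 2 without 1 array and 0 with either covariate fit. With either covariate fit, calls over all genes fell to 0 higher and 0 lower for the difference of effects. In vehicle ears they fell to 1 higher and 1 lower. The cause was not tested. Raising values to the array median gives genes below it on every array, Awat2 among them, the array medians themselves as values. That setting called 1533 genes higher and 13042 lower in wild type, and it added Awat2 to the lower members in both genotypes and Insig1 and Dgat2 to the calls in the knockout.

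Titles number the arrays 1 to 4 in every group. Same-numbered arrays had r of -0.08 to 0.11 over 24 pairs, and other pairs between groups -0.11 to 0.09. Between wild-type and knockout vehicle ears the same-numbered arrays had r of 0.067, 0.070, 0.105 and 0.055. These lay above all differently numbered pairs of those groups (-0.072 to 0.044). Whether same-numbered arrays share more than a number was not tested. With the array number as a replicate block, wild-type counts were 0 higher and 1 lower, and the difference of effects called 1 higher, Idi1. In vehicle ears the block raised the calls over all genes from 33 higher and 108 lower to 77 and 163.

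Among single members, 30 differences were called, and over all alternatives these gave 495 values with the same direction and call and 108 with the same direction but no call. None changed direction. Clusters near the array median, such as Fads2, Scd3 and Awat2, are limited by signal over background.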
